A study of Rattus norvegicus with 10 samples.

Results

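The miR-30 family was described across the 4 treatment groups of a microRNA survey of the rat dorsal vagal complex (DVC), the hindbrain region that holds the vagal motor neurons. Its members were taken as all endogenous microRNA probes of the count table with the microRNA number 30, whatever their letter or arm. The rule found 6 of 420 probes, namely rno-miR-30a, rno-miR-30b-5p, rno-miR-30b-3p, rno-miR-30c, rno-miR-30d and rno-miR-30e. Each probe was counted on the NanoString nCounter platform, which reads fluorescent barcodes bound to single molecules without amplification.

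Tissue punches of the DVC came from 200 um sections of 10 male Sprague-Dawley rats, 1 sample per animal. In 2 animals (rIPC 2h/LAD), remote ischemic preconditioning (rIPC) preceded a coronary ligation by 2 h, the vessel tied being the left anterior descending artery (LAD). Ligation alone was done in 3 animals (LAD), preconditioning alone in 2 animals (rIPC), and 3 animals were age-matched controls (AMC). Ligated animals were sampled 24 h after the ligation, and the labels give neither an age nor a sampling time without ligation. According to the study's methods, rIPC was an occlusion of the femoral vessels under ketamine and xylazine. By the same methods, animals with rIPC alone were sampled as long after rIPC as the rIPC 2h/LAD animals. No sham-operated group was part of the microRNA survey, so ischemia cannot be told apart from anesthesia and surgery. The animal numbers have prefixes, of which none occurs in more than 1 group. Both rIPC 2h/LAD animals share a single prefix, while each of the other groups spans 2, and what a prefix stands for is not stated.

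The total microRNA count was 80696 and 93246 in the rIPC 2h/LAD samples, 28485 to 102329 in LAD, 73293 and 90086 in rIPC, and 90348 to 102824 in AMC. By POS_A, the brightest of the synthetic positive controls, the samples fell into 5 with 6725 to 8670 counts and 5 with 11724 to 14579 counts. Both rIPC 2h/LAD samples, LAD 2, LAD 3 and rIPC 1 lay in the low set, and LAD 1, rIPC 2 and all AMC samples lay in the high set. The comparison of rIPC 2h/LAD with AMC therefore coincides wholly with this split. The ligation control, a synthetic target that is counted only after the tag ligation step of the assay, reached 111% and 172% of POS_A in the rIPC 2h/LAD samples, against 24.3% to 85.6% in the other 8 samples. All 4 neuronal marker microRNAs were detected, with a summed level of 4843 to 10200 per 100000 microRNA counts over all samples, and of the 2 hindbrain markers miR-10a-5p was above background in at least 2 samples and miR-10b was not.

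MicroRNAs of the miR-30 family are broadly expressed in mammalian tissues, the brain included. As in other families, target choice rests mainly on the seed, the short stretch near the 5′ end that pairs with messenger RNAs, and members with a common seed share most predicted targets. In other tissues the family is known for roles in differentiation and for holding back programs of fibrosis and autophagy. Its genes lie in pairs in mammalian genomes, with miR-30a beside miR-30c-2, miR-30b beside miR-30d, and miR-30c-1 beside miR-30e.

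RefSeq sequences of build GRCr8 were matched by name to 3 of the 6 probes. They are shown because miR-30c and miR-30a had the largest differences of the family, in opposite directions, while carrying the same seed. The seed, bases 2 to 8, is in capitals.
miR-30c: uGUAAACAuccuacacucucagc
miR-30a: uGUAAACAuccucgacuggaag
miR-30e: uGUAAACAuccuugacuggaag
Counted from 1 at the 5′ end, miR-30a and miR-30e were the same at 21 of 22 positions and differed by C13U. Between miR-30a and miR-30c 17 of the first 22 positions were the same, and the differences were C13A, G14C, G18C, G19U and A20C, all outside the seed. Whether the probes of such near copies count each other was not tested.

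The mature miR-30c arises from both of its hairpins, so a single count covers both sources. The Mir30c1 hairpin lies at chr5:139634455-139634543 on the minus strand, 2906 bases from Mir30e and, like it, within the span of the protein-coding gene Nfyc. The Mir30c2 hairpin lies at chr9:33253682-33253765 on the plus strand, 19670 bases from Mir30a, within the spans of the pseudogene Rbx1-ps1 and the long noncoding RNA LOC134480562. The mature arms lie at chr9:33233946-33233967 on the plus strand for miR-30a and at chr5:139637504-139637525 on the minus strand for miR-30e. Both hairpins of miR-30c are shown with the mature 5p arm in capitals.
Mir30c1: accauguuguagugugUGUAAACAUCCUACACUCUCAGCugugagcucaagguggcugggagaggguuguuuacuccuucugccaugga
Mir30c2: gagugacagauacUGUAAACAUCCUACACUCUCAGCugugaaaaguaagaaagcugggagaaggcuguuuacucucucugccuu
The arm in capitals is the same in both, so its probe cannot tell them apart.

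A count was taken as above background when it exceeded the mean plus 2 SD of the negative controls of its sample, a threshold of 4.75 to 11.7 counts. The probes of miR-30a, miR-30b-5p, miR-30c and miR-30d were above it in 10 of 10 samples, miR-30e in 8 of 10 and miR-30b-3p in 2 of 10. All 6 entered the tests, which covered the 253 microRNAs above background in at least 2 samples. MiR-30c had the highest counts, 312 to 1240 per sample, and ranked 26 of 420 probes by mean level per 100000 microRNA counts. MiR-30d followed with 33 to 192 counts (rank 63), then miR-30a with 15 to 83 counts (rank 84) and miR-30b-5p with 15 to 82 counts (rank 85). MiR-30e stayed at 5 to 14 counts and miR-30b-3p at 2 to 10 counts, close to background. The order of counts from miR-30c over miR-30d to miR-30a held in 10 of 10 samples, whereas miR-30a was above miR-30b-5p in 4 samples, below it in 5 and equal in 1. MiR-30e was above miR-30b-3p in 9 of 10 samples. These are counts of different probes, and the capture of each probe is not known, so the order of counts may differ from that of the molecules.

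The values of miR-30c were lowest in the preconditioned and ligated animals. It had 440 and 318 counts in rIPC 2h/LAD samples 1 and 2, against 1240, 361 and 312 counts in LAD samples 1 to 3, 612 and 885 in rIPC samples 1 and 2, and 1015, 818 and 572 in AMC samples 1 to 3. LAD 2 and LAD 3 also had the fewest counts in total. Per 100000 microRNA counts, miR-30c was at 545 and 341 in rIPC 2h/LAD, against 1212, 842 and 1095 in LAD, 679 and 1207 in rIPC, and 1123, 834 and 556 in AMC. Both rIPC 2h/LAD samples lay below every other sample, and AMC 3 was just above them. In a punch, fewer cells of a type and less of the microRNA per cell cannot be told apart.

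MiR-30a had its highest values in the same animals. It had 78 and 83 counts in rIPC 2h/LAD samples 1 and 2, against 69, 31 and 15 counts in LAD samples 1 to 3, 62 and 34 in rIPC samples 1 and 2, and 32, 59 and 66 in AMC samples 1 to 3. On a library-scaled log2 scale (log2 CPM, the log2 of the scaled share of a sample's microRNA counts), it was at 10.07 and 9.95 in rIPC 2h/LAD, against 9.49, 9.45 and 9.09 in LAD, 9.61 and 8.69 in rIPC, and 8.47, 9.30 and 9.53 in AMC. Both rIPC 2h/LAD samples were above all other samples, and the spread was small there and in LAD and wide in rIPC and AMC.

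MiR-30d was at 10.75 and 11.04 log2 CPM in rIPC 2h/LAD, against 10.94, 10.09 and 10.19 in LAD, 10.86 and 10.04 in rIPC, and 10.35, 10.36 and 10.44 in AMC. Both rIPC 2h/LAD values lay above all AMC samples, and LAD 1 and rIPC 1 fell between them. MiR-30b-5p was at 9.20 and 9.13 log2 CPM in rIPC 2h/LAD, against 9.73, 9.58 and 9.09 in LAD, 9.42 and 9.40 in rIPC, and 9.37, 9.69 and 9.20 in AMC. Its groups overlapped apart from rIPC 2h/LAD and rIPC. MiR-30e lay between 6.44 and 7.64 log2 CPM with overlapping groups throughout.

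**Figure D1:**
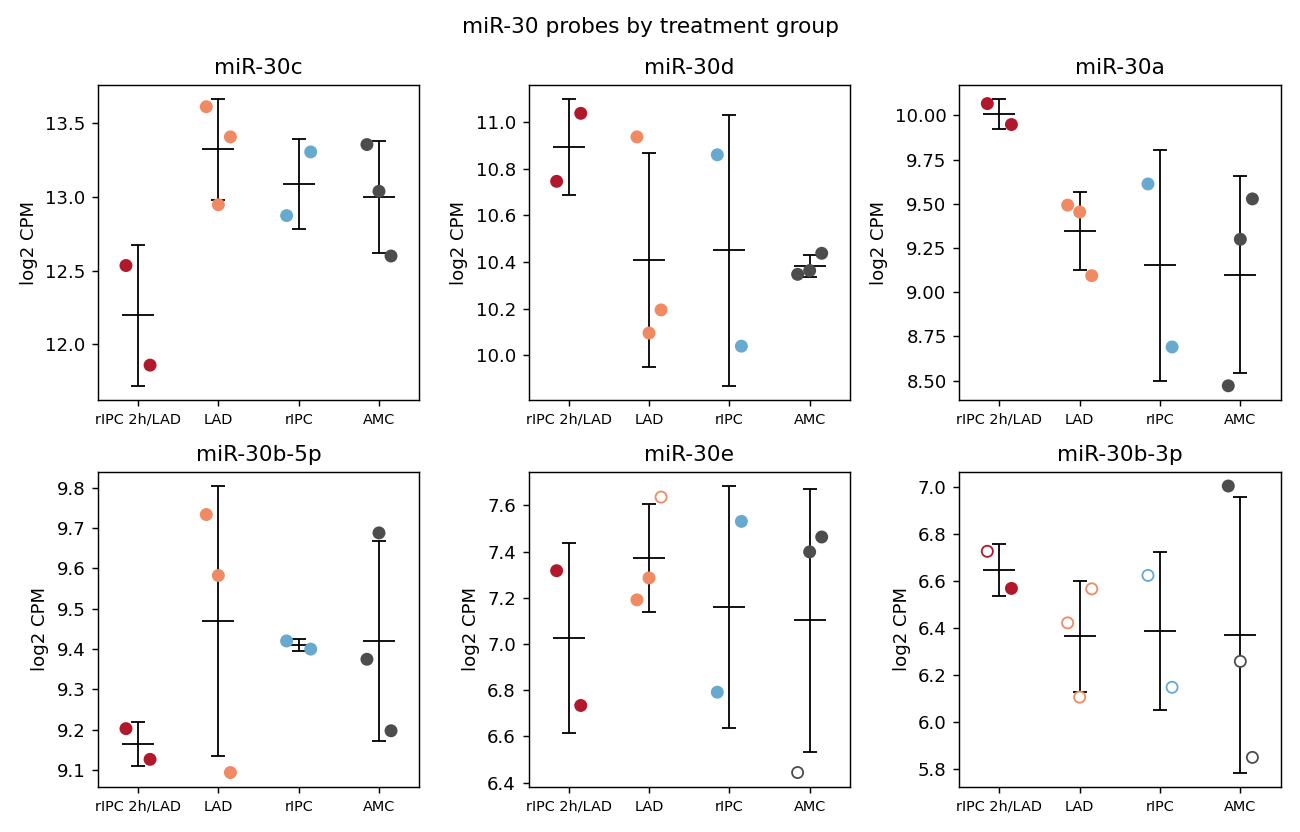
Level of each miR-30 probe as log2 CPM on the vertical axis, by treatment group, with a point per animal (open where the count was not above background) and bars for the mean and SD; each panel has its own range and does not start at 0. The rIPC 2h/LAD samples are the lowest 2 of 10 for miR-30c and the highest 2 of 10 for miR-30a.

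To ask what preconditioning before the ligation changed, rIPC 2h/LAD was compared with LAD. MiR-30c averaged 12.20 ± 0.48 log2 CPM over the rIPC 2h/LAD animals (SD, n = 2) and 13.32 ± 0.34 over the LAD animals (SD, n = 3). The fitted log2 fold change was -1.12 ± 0.35 (SE), or 0.461 of the LAD level, with a 95% interval of -1.85 to -0.38. It ranked 10 of 253 microRNAs by p, with an unadjusted p of 0.00540 in the edgeR fit, and did not pass the adjustment, at an adjusted p of 0.114. At an unadjusted p under 0.05 stood 1 of 6 members, against 17.4% of all microRNAs tested (44 of 253), and no microRNA passed the adjusted threshold (0%). The log2 CPM ranges of the groups did not overlap for 3 members, miR-30c (lower) and miR-30a and miR-30b-3p (higher), beside 37.9% of all microRNAs. MiR-30b-3p had 6 and 6 counts in rIPC 2h/LAD, against 6, 2 and 2 in LAD. Of these samples, only rIPC 2h/LAD 2 was above background for miR-30b-3p. Its nearest values were 6.568 (rIPC 2h/LAD 2) and 6.566 (LAD 3) log2 CPM. The size of the miR-30c difference depended on single animals, at -0.87 without rIPC 2h/LAD 2 and -1.57 without rIPC 2h/LAD 1. Within the low POS_A set alone it was -0.998. With the animal number prefix as a random block it was -1.11 ± 0.29 (SE, limma adjusted p = 0.0519). Without the block, limma-voom gave -1.14 ± 0.33 (SE, adjusted p = 0.136). Both rIPC 2h/LAD animals share 1 prefix, so the blocked fit cannot measure the spread between prefixes in that group.

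In preconditioned animals, the ligation was examined by comparing rIPC 2h/LAD with rIPC. MiR-30c was at 12.20 ± 0.48 log2 CPM in rIPC 2h/LAD and 13.09 ± 0.31 in rIPC (SD, n = 2 each). The log2 fold change was -0.87 ± 0.37 (SE), with an interval of -1.66 to -0.091 and an edgeR adjusted p of 0.537. At an unadjusted p under 0.05 stood 1 of 6 members, beside 6.72% of all microRNAs, with 0% past the adjusted threshold. Ranges did not overlap for miR-30a (higher), miR-30b-5p (lower) and miR-30c (lower), beside 49% of all microRNAs, a share to be read with only 2 animals on each side.

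Against AMC, the rIPC 2h/LAD animals had lower miR-30c and higher miR-30a. MiR-30c averaged 12.20 ± 0.48 log2 CPM over the rIPC 2h/LAD animals (SD, n = 2) and 13.00 ± 0.38 over the AMC animals (SD, n = 3). This gave a fitted difference of -0.80 ± 0.34 (SE) on the log2 scale, with an interval of -1.52 to -0.072. MiR-30a averaged 10.01 ± 0.08 log2 CPM over the rIPC 2h/LAD animals (SD, n = 2) and 9.10 ± 0.56 over the AMC animals (SD, n = 3). Its fitted log2 fold change was 0.87 ± 0.36 (SE), or 1.83 times the AMC level, with an interval of 0.097 to 1.64. Both had an edgeR adjusted p of 0.444. They are the 2 of 6 members at an unadjusted p under 0.05, beside 8.70% of all microRNAs, with 0% past the adjusted threshold. Ranges did not overlap for miR-30a and miR-30d (higher) and miR-30c (lower), beside 30.8% of all microRNAs. With the POS_A set as a covariate the log2 fold changes were -0.37 for miR-30c and 0.58 for miR-30a, and without rIPC 2h/LAD 1 that of miR-30c was -1.25. These 3 comparisons share the same rIPC 2h/LAD animals, so their results are not independent of each other.

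After ligation alone, and after preconditioning alone, the 95% intervals of all 6 members included 0. The member with the smallest p in LAD against AMC was miR-30c, at 13.32 ± 0.34 log2 CPM in LAD and 13.00 ± 0.38 in AMC (SD, n = 3 each). Its log2 fold change of 0.32 ± 0.30 (SE), with an interval of -0.31 to 0.95, had an edgeR adjusted p of 0.967. None of the 6 members was at an unadjusted p under 0.05, beside 5.53% of all microRNAs, and none had ranges that did not overlap, beside 9.09%. After preconditioning alone the smallest p of the family belonged to miR-30d, with 10.45 ± 0.58 log2 CPM over the rIPC animals (SD, n = 2) and 10.38 ± 0.05 over the AMC animals (SD, n = 3). The log2 fold change was 0.12 ± 0.34 (SE), with an interval of -0.60 to 0.85 and an edgeR adjusted p of 0.997, and it turned to -0.35 without rIPC 1. None of the members was at an unadjusted p under 0.05 beside 1.19% of all microRNAs, and none was free of overlap beside 11.9%.

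The test of whether the ligation effect differs with preconditioning, (rIPC 2h/LAD - rIPC) - (LAD - AMC), gave -1.19 ± 0.47 (SE) on the log2 scale for miR-30c, with an interval of -2.20 to -0.19 and an edgeR adjusted p of 0.341. It was the 1 member of 6 at an unadjusted p under 0.05, beside 12.3% of all microRNAs. In the test of any difference among the 4 groups miR-30c ranked 18 of 253 with an adjusted p of 0.565, and it was again 1 of 6 members beside 8.70% at an unadjusted p under 0.05.

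**Figure D2:**
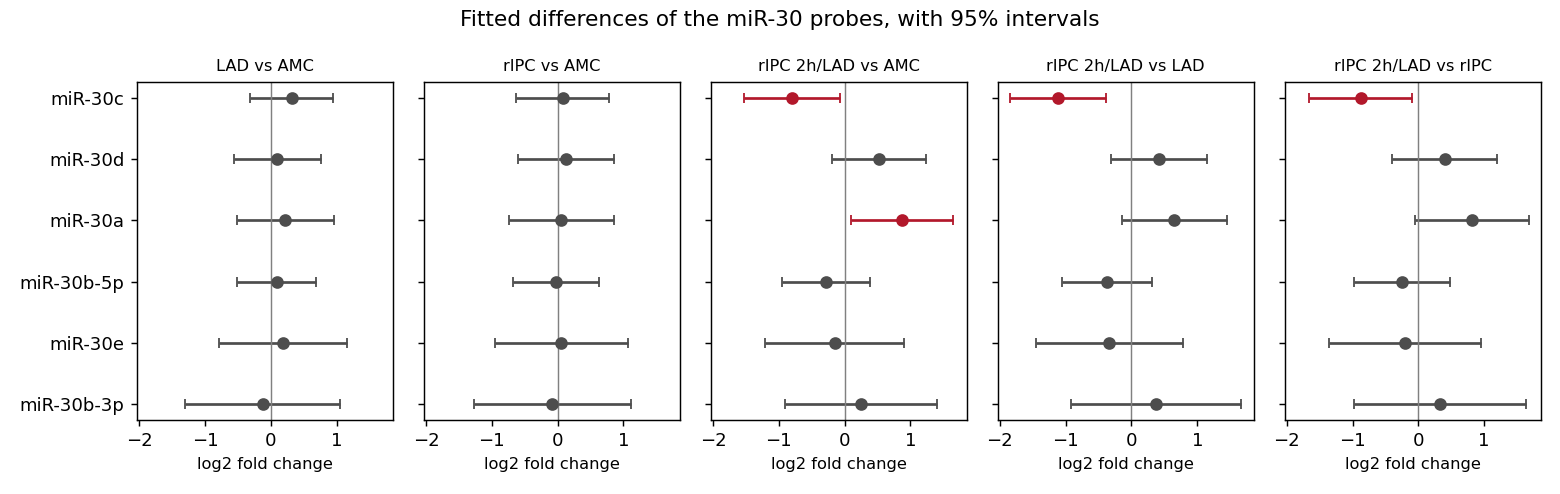
Fitted log2 fold change (horizontal axis) of each miR-30 probe in 5 comparisons, first-named group over second, with 95% intervals; red marks an unadjusted p under 0.05. MiR-30c is red in all 3 comparisons of rIPC 2h/LAD and miR-30a in that with AMC, and no member passed the adjustment over all microRNAs.

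As a family the members did not share a direction in rIPC 2h/LAD. Of the 6 members, 3 had higher and 3 had lower values in rIPC 2h/LAD than in AMC, LAD or rIPC, with median log2 fold changes of 0.050, 0.017 and 0.062. Over all microRNAs tested the medians were -0.014, 0.019 and 0.067. In LAD against AMC 5 members were higher and 1 was lower, with a median of 0.15 beside -0.012 for all microRNAs. Of all 253 microRNAs, 121 were higher and 132 lower in that comparison. The 7 probes of the let-7 family, another large family found in most tissues, were all lower there, from -0.38 to -0.002, with a median of -0.17. None of the miR-30 or let-7 probes was at an unadjusted edgeR p under 0.05 there. In rIPC 2h/LAD against LAD the median was 0.14 over the let-7 probes and 0.43 over the 3 probes of the miR-29 family, which is known for its collagen targets. None of the members of any of these families passed the adjusted threshold.

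Ratios within a sample do not depend on scaling between samples, so each 5p member was also set against the mean log2 count of the other 4. Other technical differences between samples are not removed by such ratios. MiR-30c exceeded them by 3.29 and 2.77 log2 units in rIPC 2h/LAD, against 4.37, 3.94 and 4.49 in LAD, 3.82 and 4.48 in rIPC, and 4.86, 3.94 and 3.53 in AMC. The rIPC 2h/LAD samples were again lowest, by 1.24 log2 units against LAD, 1.13 against rIPC and 1.08 against AMC, with a pooled SD within groups of 0.49. Without AMC 1 the difference from AMC was 0.71. MiR-30a stood at 0.17 and 0.34 log2 units relative to the others in rIPC 2h/LAD, and was below 0 in every other sample, between -1.39 (rIPC 2) and -0.31 (rIPC 1). Its group differences were 1.03 against LAD, 1.11 against rIPC and 1.10 against AMC, with a pooled SD of 0.45, and that against rIPC was 1.65 without rIPC 1 and 0.56 without rIPC 2. MiR-30c and miR-30a enter each other's comparison, so their ratios are not independent.

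**Figure D3:**
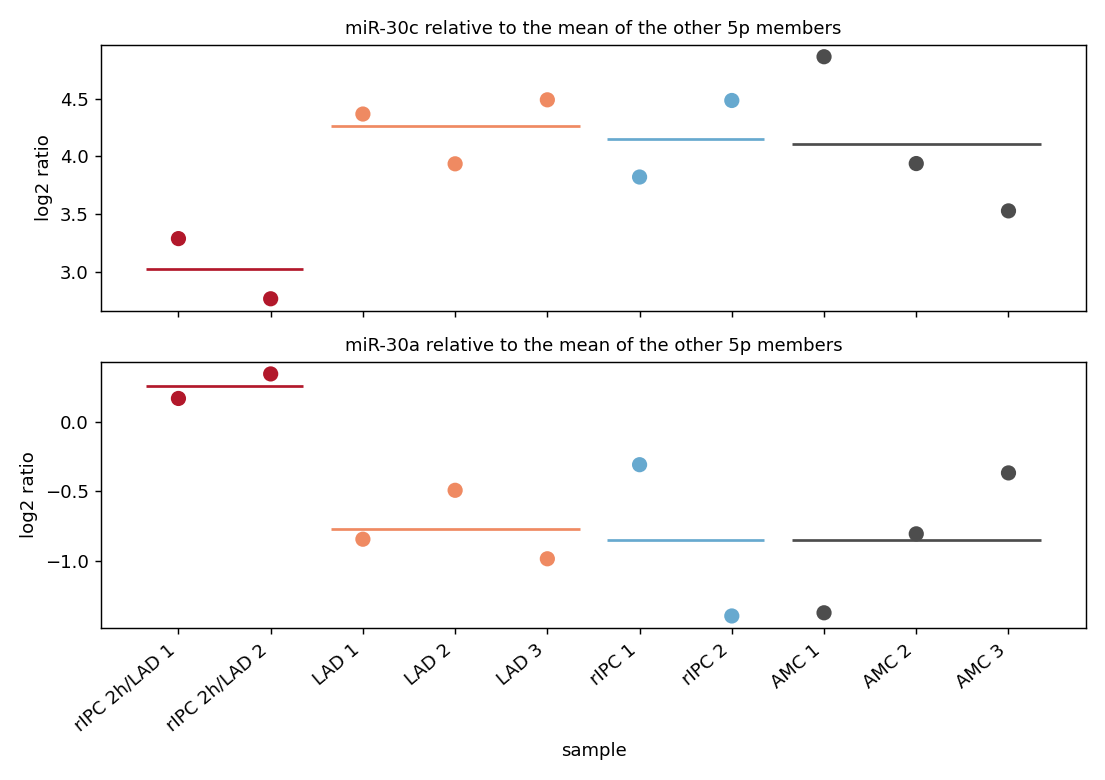
Log2 ratio (vertical axis) of miR-30c, above, and miR-30a, below, to the mean of the other 5p members of the same sample, for each of the 10 samples, with a line for each group mean. The rIPC 2h/LAD samples are the lowest for miR-30c (3.29 and 2.77) and the only ones above 0 for miR-30a (0.17 and 0.34).

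Put as counts, the miR-30c probe had 5.64 and 3.83 times the counts of the miR-30a probe in rIPC 2h/LAD. This ratio was 17.97, 11.6 and 20.8 in LAD, 9.87 and 26.0 in rIPC, and 31.7, 13.9 and 8.67 in AMC. Where the ligation control was at 46.7%, 54.4%, 79.2%, 85.6%, 111% and 172% of POS_A, the ratio was 31.7, 11.6, 9.87, 8.67, 5.64 and 3.83. It thus fell at each step, in samples of all groups. At 24.3%, 35.9%, 38.4% and 38.9% it was 20.8, 17.97, 26.0 and 13.9, without a steady order. The relation of the ratio to the ligation control was not tested. MiR-30c made up 56.7% ± 9.18 of the 5p counts of the family in rIPC 2h/LAD (SD, n = 2), against 78.3% ± 3.56 in LAD (SD, n = 3), 75.5% ± 9.05 over the rIPC animals (SD, n = 2) and 75.2% ± 6.52 in AMC (SD, n = 3). Its share in rIPC 2h/LAD 1 was 63.2% (95% Wilson interval 59.6% to 66.7%, 696 counts) and in rIPC 2h/LAD 2 50.2% (46.4% to 54.1%, 633 counts), and the lowest elsewhere was 68.9% in AMC 3 (65.7% to 72.0%, 830 counts). These intervals cover counting error only. MiR-30a took 12.2% ± 1.35 in rIPC 2h/LAD, against 4.91% ± 1.35 in LAD, 5.08% ± 2.73 in rIPC and 5.31% ± 2.69 in AMC. MiR-30d took 23.2% ± 7.19 in rIPC 2h/LAD, against 10.3% ± 1.68 in LAD, 12.6% ± 6.09 in rIPC and 12.2% ± 2.66 in AMC.

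The level of miR-30c also moved with the ligation control over all groups. Across 10 samples, log2 CPM of miR-30c and the log2 ratio of the ligation control to POS_A had a Pearson r of -0.93 (permutation p = 0.00016, adjusted p = 0.00651 over 253 microRNAs) and a Spearman rho of -0.95 (permutation p = 0.0001, adjusted p = 0.00843). The 2 samples farthest from the median ratio are both rIPC 2h/LAD samples, and without them r was -0.83 over 8 samples. For deviations from the group means r was -0.80. Among the 253 microRNAs, 6 had an r over all 10 samples at least as large in size as -0.93, miR-30c included. For the r over 10 samples, 12.3% of the 253 passed the adjusted threshold. Each POS_A set holds 5 samples, and no correlation was computed within a set. In the low set, miR-30c was at 13.41, 12.95, 12.87, 12.53 and 11.86 log2 CPM where the ligation control was at 24.3%, 54.4%, 79.2%, 111% and 172% of POS_A. In the high set it was at 13.61, 13.30, 13.04, 13.35 and 12.60 log2 CPM where the control was at 35.9%, 38.4%, 38.9%, 46.7% and 85.6%. MiR-30c was thus lower at each higher ligation control in the low set, and in the high set except between AMC 2 and AMC 1. For miR-30a r was 0.70 (permutation p = 0.0241, adjusted p = 0.122) with a rho of 0.75 (permutation p = 0.0174, adjusted p = 0.105), and r was 0.43 without the same samples. Of the 6 members, miR-30c passed, and the other 5 had an r between -0.42 and 0.70.

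**Figure D4:**
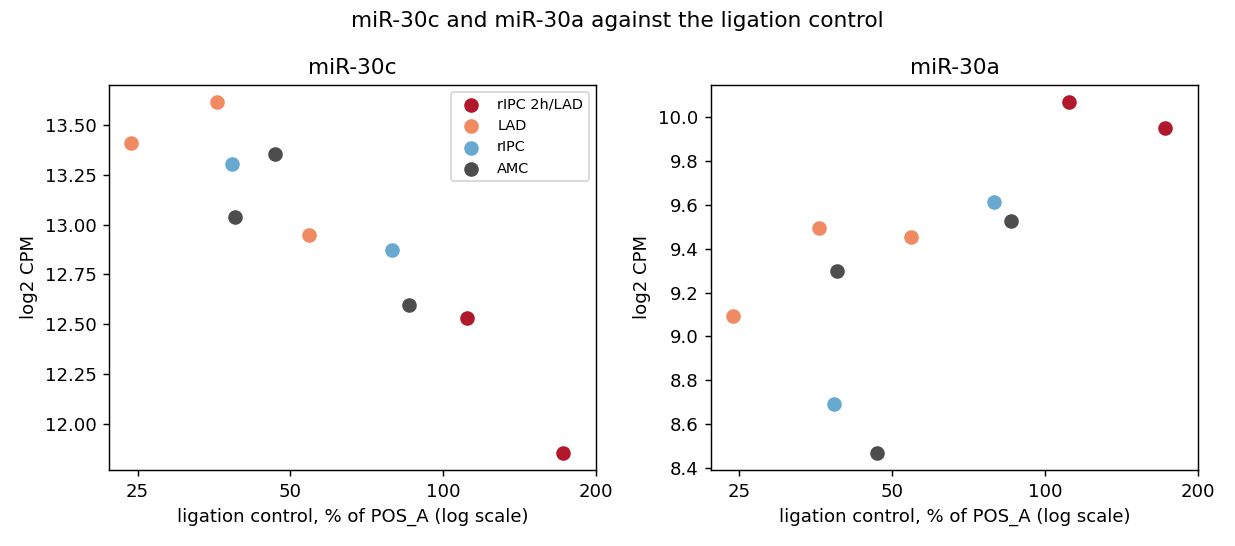
Log2 CPM of miR-30c (left) and miR-30a (right) on the vertical axis against the ligation control as a percentage of POS_A (horizontal axis, log scale), with a point for each of the 10 samples. The rIPC 2h/LAD samples have the highest ligation control (111% and 172%), and miR-30c runs downward over the samples (r = -0.93) while miR-30a runs upward (r = 0.70).

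Once the ligation control entered the fit as a covariate, the miR-30c differences shrank, to a log2 fold change of -0.15 ± 0.50 (SE) in rIPC 2h/LAD against LAD (edgeR adjusted p = 0.970), -0.11 ± 0.41 against AMC (adjusted p = 0.959) and -0.21 ± 0.42 against rIPC (adjusted p = 0.997). The interaction of miR-30c was then -0.24 ± 0.56 (SE). MiR-30a was at 0.27 ± 0.49 in rIPC 2h/LAD against AMC, and its log2 fold change against LAD was -0.20 ± 0.61 with the covariate and 0.65 ± 0.37 without it. The ligation control was highest in both rIPC 2h/LAD samples, so the covariate and this group cannot be fully told apart, and the errors of the differences were wider than without it.

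The patterns most like that of miR-30c over the 10 samples were those of miR-411 (r = 0.94, rho = 0.95), a microRNA of an imprinted brain-enriched cluster, miR-150 (r = 0.91, rho = 0.75), which is abundant in lymphocytes, and miR-27b (r = 0.90, rho = 0.83). Those most like miR-30a were miR-100 (r = 0.85, rho = 0.85), miR-125a-5p (r = 0.79, rho = 0.76) and miR-29c (r = 0.78, rho = 0.84). Within the family miR-30a was closest to miR-30d (r = 0.68, rho = 0.76) and ran against miR-30c (r = -0.70, rho = -0.76), its genomic neighbour. MiR-30c and miR-30e, which also neighbour each other, had an r of 0.23. These are descriptions over samples that share their scaling.

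The seed GUAAACA was held by 4 of 693 mature rat sequences of the RefSeq table, the 3 members above and miR-384-5p. The probes of miR-30b and miR-30d had no matched sequence and are not part of this count. MiR-384-5p carries another number and is shown for its shared seed.
miR-384-5p: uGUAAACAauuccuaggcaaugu
It lies at chrX:74490939-74490961 on the minus strand. MiR-384-5p had 42 and 47 counts in rIPC 2h/LAD, against 50, 14 and 5 in LAD, 30 and 43 in rIPC, and 22, 41 and 28 in AMC. Per 100000 microRNA counts it was at 52.0 and 50.4 in rIPC 2h/LAD, and at 33.3 and 58.7 in rIPC. In LAD it was at 48.9, 32.6 and 17.6, and in AMC at 24.4, 41.8 and 27.2. Its log2 fold change in rIPC 2h/LAD against AMC was 0.81 ± 0.38 (SE), with an edgeR adjusted p of 0.572. Against LAD it was 0.63 ± 0.39 (edgeR adjusted p = 0.372), and against rIPC 0.37 ± 0.41 (edgeR adjusted p = 0.773). The sign in each was that of miR-30a rather than miR-30c.

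Some cell type marker levels also stood apart between rIPC 2h/LAD and LAD. The summed level of the 3 leukocyte markers was 1051 and 1383 per 100000 microRNA counts in rIPC 2h/LAD, against 1696 to 1872 in LAD, 1344 to 2018 in rIPC and 1323 to 2094 in AMC. Nearly all of it was miR-150, while miR-223 was above background in 0 of 10 samples and miR-142-3p in 9 of 10. MiR-142-3p was at 21.1 and 20.4 per 100000 in rIPC 2h/LAD, within the LAD values of 24.4, 39.6 and 7.02. The lower leukocyte sum than in LAD is thus that of miR-150. The 3 oligodendrocyte markers summed to 982 and 1762 in rIPC 2h/LAD, against 1991 to 5143 in LAD, 1261 to 3097 in rIPC and 1420 to 3639 in AMC. The choroid plexus and ciliated cell markers, 7 probes, summed to 1857 and 2062 in rIPC 2h/LAD, against 2129 to 18722 in LAD, 2562 and 10025 in rIPC, and 1822 to 5914 in AMC. The motor neuron marker miR-218a was at 274 and 534 in rIPC 2h/LAD, against 165 to 207 in LAD, 351 and 401 in rIPC, and 280 to 526 in AMC. The erythrocyte markers summed to 11.8 and 13.6 in rIPC 2h/LAD, against 16.6 to 49.0 in LAD, 21.1 and 32.7 in rIPC, and 15.3 to 30.1 in AMC. Of these 2 probes, 1 was above background in each rIPC 2h/LAD sample, 0 in AMC 2 and LAD 3, and 2 in AMC 3 and LAD 2. Their sums are thus limited by background. In rIPC 2h/LAD the sums of the leukocyte, oligodendrocyte, choroid plexus and erythrocyte lists were all below those in LAD, and miR-218a was above its LAD values, beside the 37.9% of all microRNAs without overlap given above. That share is of single microRNAs in log2 CPM, whereas the marker levels are per 100000 counts and mostly sums of probes, so the measures differ. The leukocyte, oligodendrocyte and miR-218a ranges overlapped both AMC and rIPC, the choroid plexus range overlapped AMC, and the erythrocyte range overlapped neither. The neuron, vascular, muscle and hindbrain lists overlapped LAD, with vascular sums of 2412 and 2663 in rIPC 2h/LAD against 2103 to 3202 in LAD. Their part in the miR-30 differences was not tested.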

How the data were processed

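MicroRNA counts were analysed in 10 DVC samples, grouped by the treatment in the labels and numbered within groups in accession order. The authors deposited whole-number nCounter counts per probe, not normalized, with no deposited counts at 0 (the lowest is 1), and the counting software was not given in the sources read. They also deposited log2 values for 150 rows. Of these, 144 matched microRNA probes by name, and each equalled log2 of its probe's count per 100000 microRNA counts of the sample to within 4.98e-09. No per-sample column was left without a sample (0).

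Library scaling used TMM (trimmed mean of M values), and testing the two-sided quasi-likelihood F test of edgeR 4.0.16 (R 4.3.3), all 10 samples in 1 fit, with Benjamini-Hochberg adjustment over 253 microRNAs within each contrast and a threshold of 0.05. The biological coefficient of variation common to all microRNAs was 0.287. The SE was derived from F (size of the log2 fold change divided by F's square root) and underlies the 95% intervals. A prior count of 2 was used for log2 CPM. The fit was tested on simulated data with planted changes larger than any miR-30 difference given here, so recovery at the sizes reported was not tested. P-values of the fits measure the spread between animals within groups. No sample pair was a repeat (lowest chi-square per degree of freedom 5.52). Correlations with the ligation control used 100000 permutations of all 10 samples without regard to group, so their p-values include differences between groups. The relation to the ligation control was examined after the data were seen.

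Log2 fold changes with SE were planned for members with an unadjusted p under 0.05 in a contrast, otherwise for the member with the smallest p, and for their 3 most similar microRNAs by r. Values of miR-384-5p and those of miR-30a against LAD were chosen after they were seen. Members, lists and tests were chosen with earlier results of these data known. Alternatives were DESeq2 1.42.0, limma-voom and limma 3.58.1 on the deposited log2 values, 2 other scalings, subtraction of the negative control mean, other filters, fewer samples, a random block for the animal number prefix, technical covariates and leaving out each sample. Ratios of 5p to 3p arms were not computed, since miR-30b-3p was above background in 2 of 10 samples.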

Additional observations from a re-analysis of the deposited data

How the results depend on the processing

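No member of the miR-30 family passed the adjusted threshold in any comparison under any alternative run. The log2 fold change of miR-30c kept its direction under all 24 alternatives for rIPC 2h/LAD against LAD (-1.57 to -0.15, adjusted p 0.0519 to 0.970), under all 23 against AMC (-1.25 to -0.11), all 24 against rIPC (-1.30 to -0.21) and all 22 for the interaction (-1.63 to -0.24), as did miR-30a against AMC (0.27 to 1.10). The values nearest 0 came from the fit with the ligation control as covariate. MiR-30d in rIPC against AMC reversed, to -0.35 without rIPC 1 (0.48 without rIPC 2, the highest) and -0.33 within the high POS_A set. The ratio of miR-30a to the other members in rIPC 2h/LAD against rIPC was between 0.56 and 1.65 when single samples were left out. Without AMC 1 the log2 fold changes against AMC were -0.60 for miR-30c and 0.61 for miR-30a. Counts of all microRNAs called, 0 in each comparison, were 1 with DESeq2 in rIPC 2h/LAD against AMC, 8 with only the groups compared in rIPC 2h/LAD against rIPC, and 1 each with the animal number prefix as a random block in rIPC 2h/LAD against LAD and in the interaction. Leaving out single samples gave 0 to 1 in rIPC 2h/LAD against AMC (1 without AMC 3 or LAD 1) and in the interaction (1 without rIPC 1). In fits added after the data were seen, LAD 1 as the only LAD sample gave 3 against LAD and 2 in the interaction, the low POS_A set gave 2 in rIPC 2h/LAD against rIPC, and the high set gave 4 in LAD against AMC. In each of these fits 1 of the compared groups held a single sample, which was assumed to vary like the other groups. Scaling to the most abundant microRNAs shifted the median log2 fold change of all microRNAs by 0.14 in LAD against AMC, -0.19 in rIPC 2h/LAD against LAD, -0.12 against rIPC and -0.27 in the interaction, and omitting TMM by -0.14, -0.19 and -0.23 in the last 3. No paired analysis was possible because the labels give no replicate numbers that groups share. Depth limits miR-30e and miR-30b-3p, whose counts of 2 to 14 lie near background.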
